A study of Homo sapiens with 4 samples.

Results

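The levels of 10 genes of glycolysis and the hypoxia response were compared in NT2 cells, a human embryonal carcinoma line also known as NTERA-2. They are SLC2A1, HK2, PFKP, ALDOA, PGK1, ENO1, PKM, LDHA, PDK1 and BNIP3, chosen by symbol as HIF-responsive genes, and each matched 1 of the 62696 identifiers in the count tables. RNA was sequenced from 1 library of cells with an empty vector, whose genotype the labels give as wild type, and from 3 libraries labelled HYDIN2 knockdown, replicates 1 to 3. All 4 came from cells grown in serum-containing medium. The labels give neither the knockdown construct nor whether the replicates were separate cultures, and they record no oxygen level and no cell density. The count columns are headed with a LacZ control and with numbered GKAP_KIF27 sets, per the file headers, whereas the sample labels name HYDIN2.

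Glycolysis turns glucose into pyruvate in the cytosol, and lactate dehydrogenase then turns pyruvate into lactate. HIF is a transcription factor made of an oxygen-sensitive alpha subunit and a constant beta subunit; when oxygen is scarce the alpha subunit is no longer hydroxylated and degraded, and HIF binds short hypoxia response elements near genes of glucose uptake, glycolysis and mitochondrial turnover. Pluripotent and embryonal carcinoma cells are known for a high rate of glycolysis even with oxygen present.

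A hypoxia response element has the core letters ACGTG or GCGTG, so these were looked up on both strands of promoter windows from RefSeq on GRCh38.p14, which reach from 250 bases before a gene's start to 50 after it. The windows below are those with the most matches among the 10 genes, and they set BNIP3, PGK1 and LDHA beside HK2, whose levels differed in pattern. Capitals mark the letters that match on either strand, and overlapping matches, as in CACGTG, were counted as 1 stretch. Each is written 5′ to 3′ on the gene's own strand.
BNIP3, chr10:131981874-131982173, minus strand: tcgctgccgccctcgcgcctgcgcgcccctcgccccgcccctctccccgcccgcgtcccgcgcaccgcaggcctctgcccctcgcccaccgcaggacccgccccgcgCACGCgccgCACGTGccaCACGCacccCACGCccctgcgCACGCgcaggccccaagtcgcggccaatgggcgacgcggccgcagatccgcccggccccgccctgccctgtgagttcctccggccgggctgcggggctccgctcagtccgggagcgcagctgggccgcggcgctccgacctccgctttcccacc
PGK1, chrX:78103998-78104297, plus strand: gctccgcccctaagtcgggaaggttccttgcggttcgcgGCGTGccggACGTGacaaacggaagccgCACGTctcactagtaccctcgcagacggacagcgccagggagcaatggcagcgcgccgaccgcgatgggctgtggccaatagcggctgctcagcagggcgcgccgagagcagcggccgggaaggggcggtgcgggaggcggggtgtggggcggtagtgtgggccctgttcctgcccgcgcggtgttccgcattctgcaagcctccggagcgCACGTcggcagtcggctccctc
LDHA, chr11:18394313-18394612, plus strand: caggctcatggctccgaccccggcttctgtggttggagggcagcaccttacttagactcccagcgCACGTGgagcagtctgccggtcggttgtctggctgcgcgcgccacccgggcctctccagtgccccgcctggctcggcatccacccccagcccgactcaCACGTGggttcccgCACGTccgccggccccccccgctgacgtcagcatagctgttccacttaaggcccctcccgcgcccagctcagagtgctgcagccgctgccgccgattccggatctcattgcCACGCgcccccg
HK2, chr2:74834920-74835219, plus strand: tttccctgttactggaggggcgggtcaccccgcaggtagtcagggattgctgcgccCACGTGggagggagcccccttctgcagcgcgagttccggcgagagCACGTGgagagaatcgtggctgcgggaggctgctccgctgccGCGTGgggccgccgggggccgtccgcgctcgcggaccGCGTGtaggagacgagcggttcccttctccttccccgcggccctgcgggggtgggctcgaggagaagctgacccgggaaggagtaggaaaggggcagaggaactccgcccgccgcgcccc

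BNIP3 had 5 matching stretches, and PGK1, LDHA and HK2 had 4 each. Of all 35116 RefSeq windows of this length, 48.4% held at least 1 stretch and 2.66% held at least 4. All 10 genes matched the promoter table, with 18 windows in all because several have more than 1 annotated start; 15 of the 18 windows held a stretch, and each gene had a stretch in at least 1 window. PFKP had at most 3 stretches in a window, ENO1 and PDK1 at most 2, and SLC2A1, PKM and ALDOA had 1. The windows were rich in G and C, with a median of 70.3% against 58.7% over all windows. A match is a string of letters and not a measured binding site, and nothing in these libraries reads binding.

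HYDIN2, the gene named as target, had 12 counts with empty vector and 150, 112 and 11 counts in replicates 1, 2 and 3. These counts are not scaled to the library totals, which were 25181737 with empty vector and 62904698, 61627449 and 28552070 in replicates 1, 2 and 3. HYDIN2 was not lower but higher in replicates 1 and 2, also for their larger totals. The 12 and 11 counts are too few to say whether it was lower in replicate 3. Every direction below is that of a labelled library. Replicates 1 and 2 were close to each other and replicate 3 stood apart from both, so the main counts are also given without it.

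The 10 genes lay lower in the libraries labelled knockdown than in the empty vector library, by close to 2-fold for most of them. Levels are given as CPM, counts scaled to a common library total with TMM factors. Summed over the 10 genes, the level was 5561 CPM with empty vector and 2997, 3099 and 3044 CPM in labelled knockdown replicates 1, 2 and 3. They took 0.530% of all counts with empty vector and 0.297%, 0.30% and 0.333% in the other 3. The 3 sums were almost equal even though single genes were not. PKM and ENO1 were the largest parts of each sum, and of the 3 replicates, replicate 3 had the highest PKM and the lowest ENO1. In bulk RNA, fewer cells of a type and less RNA per cell cannot be told apart.

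BNIP3 fell, by the rule that log2 CPM is at least 1, or 2-fold, away from the empty vector value on one and the same side in each of the 3 other libraries. It was the only one of the 10 to pass. Of the 15880 genes tested, which had a mean level of at least 1 CPM, 6.38% passed in either direction, 2.72% as lower and 3.66% as higher, so 1 of 10 called is not a result about the 10 genes as a set. At a 1.5-fold limit 8 of the 10 passed, all lower, against 9.62% of all genes; SLC2A1 and HK2 did not. By direction alone, 9 of 10 lay below the empty vector library in all 3, against 34.2% of all genes, and the exception was HK2. The 3 differences of a gene share the 1 empty vector library and are not independent. The SD of a log2 difference, given below, holds no spread on the empty vector side. Without replicate 3, all 10 lay below it in both remaining libraries, against 44.1% of all genes, and BNIP3 was still the only one at least 2-fold lower in both, against 5.35%. The median over the 10 genes of the mean log2 difference was -0.93, and over all genes tested it was -0.02. In single replicates the 10 genes had medians of -0.88, -0.82 and -1.11, beside 0.03, 0.05 and -0.15 for all genes. All 10 lay lower in replicate 1 and in replicate 2, and 9 in replicate 3, where 48.7%, 47.3% and 56.8% of all genes did. At least 2-fold lower were 3 of the 10 in replicate 1 (ALDOA, PKM and BNIP3; 7.5% of all genes), BNIP3 alone in replicate 2 (6.7%), and 6 in replicate 3 (PFKP, ALDOA, PGK1, LDHA, PDK1 and BNIP3; 15.9%).

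**Figure D1:**
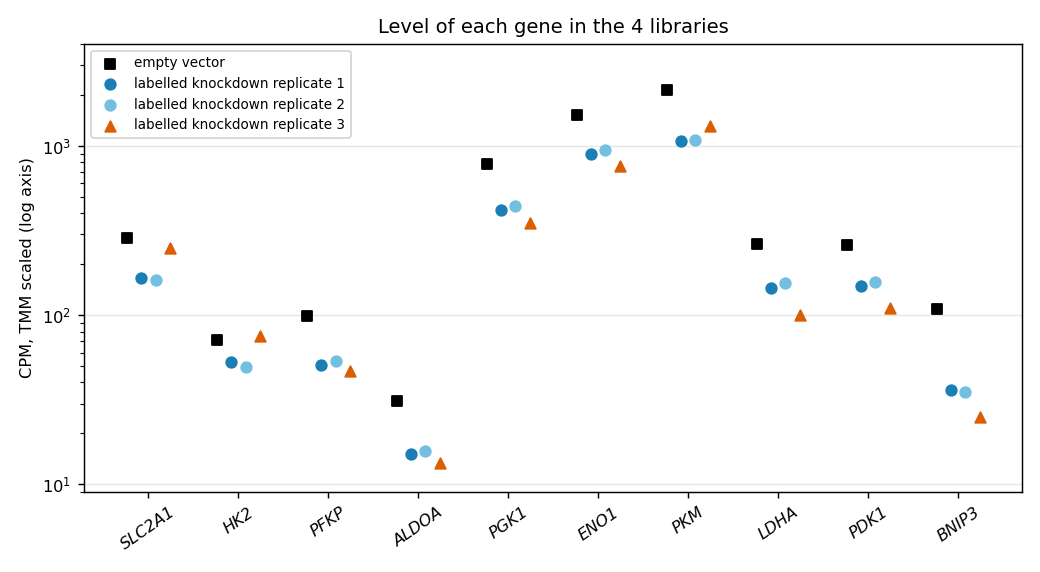
Level of each of the 10 genes in CPM after TMM scaling, on a log axis, with 1 point per library (black square, empty vector; circles, labelled knockdown replicates 1 and 2; triangle, replicate 3). The black square is the highest point for every gene but HK2, where replicate 3 at 75.4 CPM lies above the empty vector library at 71.7 CPM.

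edgeR's quasi-likelihood test called 0 of the 10 genes at a Benjamini-Hochberg adjusted p of 0.05, and 0% of 26029 genes. The adjusted p of the 10 genes ran from 0.358, shared by BNIP3, PFKP, ALDOA, PGK1 and PKM, to 0.769 for HK2. At an unadjusted p under 0.05, 8 of the 10 were lower, against 5.19% of all genes, with SLC2A1 and HK2 as the exceptions. DESeq2 called BNIP3 alone of the 10, as lower with an adjusted p of 0.0106, beside 1.72% of all genes in either direction and 0.439% as lower; voom in limma called 0 of the 10. The spread in these tests comes from the 3 labelled knockdown libraries, since the other side has 1. Leaving out replicate 3 made edgeR call all 10 as lower, with adjusted p from 5.46e-77 for BNIP3 to 4.01e-08 for HK2, but it then called 44.7% of all genes, 21.2% as lower, from a pair of libraries that lie close together. Without replicate 1 it called 0 of the 10, beside 0.0737% of all genes and 0.0304% as lower, and without replicate 2 it also called 0, beside 0.169% and 0.0608%. These p-values measure only the spread between the libraries, which may be technical.

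**Figure D2:**
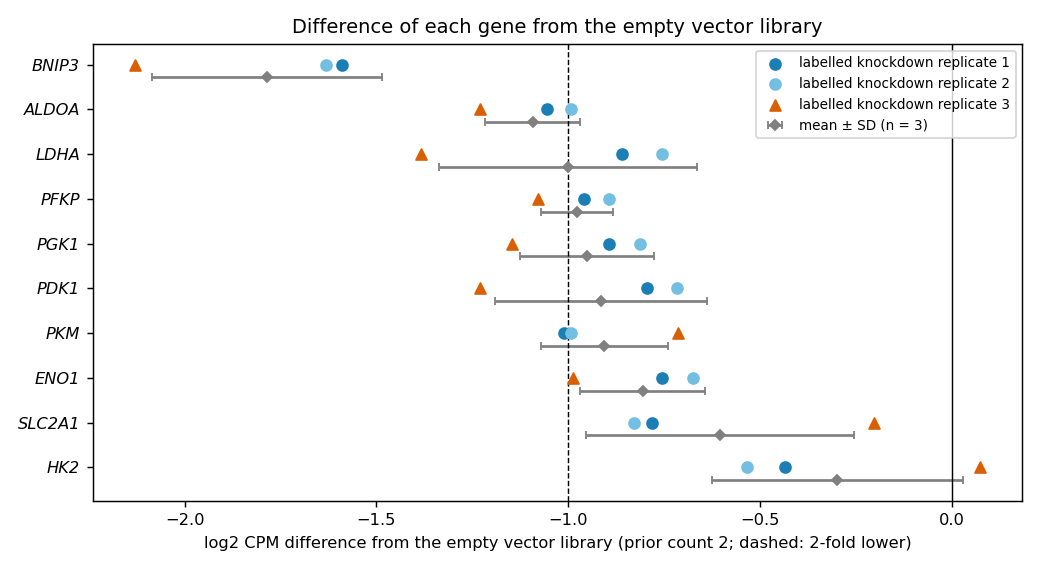
Log2 CPM difference of each labelled knockdown library from the empty vector library, with a prior count of 2, for each gene; grey diamonds and bars are the mean and SD of the 3 libraries and the dashed line marks 2-fold lower. BNIP3 lies beyond the dashed line in all 3 libraries, and replicate 3 (triangles) is the lowest point for 7 genes and the highest for PKM, SLC2A1 and HK2.

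Glucose entry was read first. SLC2A1 (ENSG00000117394.24; GRCh38 chromosome 1, 42925375 to 42959176, minus strand) encodes GLUT1, the widespread basal glucose transporter. It had 286 CPM with empty vector and 166, 161 and 249 CPM in labelled knockdown replicates 1, 2 and 3. All 3 lay lower, but replicate 3 lay much nearer to the empty vector library than to the other replicates. The mean was 192 ± 49.1 CPM (SD, n = 3) and the mean log2 difference -0.60 ± 0.35 (SD, n = 3). Replicate 3 stood at 0.869 of the empty vector level, with a 95% interval of 0.830 to 0.910 that covers counting error only.

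HK2 (ENSG00000159399.10; chromosome 2, 74833981 to 74893359, plus strand) encodes hexokinase 2, which phosphorylates glucose and can sit on the mitochondrial outer membrane. It had 71.7 CPM with empty vector and 53.1, 49.5 and 75.4 CPM in the replicates. Replicates 1 and 2 lay below and replicate 3 did not; its ratio was 1.05 (0.963 to 1.15), an interval that includes 1. The mean log2 difference was -0.30 ± 0.33 (SD, n = 3), so its SD exceeded it. PFKP (ENSG00000067057.19; chromosome 10, 3066333 to 3137712, plus strand) encodes the platelet form of phosphofructokinase, which makes the committed step of glycolysis. It had 99.2 CPM against 51.0, 53.3 and 46.9 CPM. The 3 labelled knockdown libraries were close to each other, with a mean log2 difference of -0.98 ± 0.09 (SD, n = 3), the tightest of the 10 genes.

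The 4 enzymes further down the path were PGK1, ENO1, PKM and ALDOA. PGK1 (ENSG00000102144.15; chromosome X, 77910739 to 78129296, plus strand), phosphoglycerate kinase, makes the first ATP of the pathway. It had 779 CPM with empty vector and 419, 443 and 352 CPM in the replicates, a mean log2 difference of -0.95 ± 0.17 (SD, n = 3). ENO1 (ENSG00000074800.16; chromosome 1, 8861000 to 8879250, minus strand), the alpha enolase that makes phosphoenolpyruvate, had 1514 CPM against 896, 949 and 763 CPM. Its mean log2 difference was -0.81 ± 0.16 (SD, n = 3), and replicate 3 was again the lowest.

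PKM (ENSG00000067225.21; chromosome 15, 72199029 to 72231822, minus strand) encodes the muscle-type pyruvate kinase and was the most abundant of the 10 genes. It had 2150 CPM with empty vector and 1067, 1080 and 1310 CPM in replicates 1, 2 and 3. Unlike in ENO1, replicate 3 was the highest of the 3, at 0.609 of the empty vector level (0.598 to 0.620). Its splice forms PKM1 and PKM2 share the gene's counts and were not separated here. ALDOA (ENSG00000149925.22; chromosome 16, 30064164 to 30070457, plus strand), the main aldolase of most tissues, had 31.2 CPM against 15.0, 15.7 and 13.3 CPM, and its mean log2 difference was -1.09 ± 0.12 (SD, n = 3). It lay just inside the 2-fold limit in replicate 2, at -0.99, and so missed the rule; it passed with DESeq2 size factors or upper quartile scaling.

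ALDOA's level itself is uncertain. In GENCODE 29, 42.3% of its exonic bases are also exons of a readthrough gene on the same strand, ENSG00000285043, which had only 22, 92, 136 and 62 counts with empty vector and in replicates 1, 2 and 3. Per kb of the longest annotated transcript, ALDOA stood at 12.3 CPM in the empty vector library, while ENO1 stood at 594 and PGK1 at 159 CPM per kb. How the authors counted reads that fall on both genes is not given in the sources used here, and its part in that low level was not tested. Adding the readthrough counts gave a mean log2 difference of -0.96.

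LDHA (ENSG00000134333.14; chromosome 11, 18394388 to 18408425, plus strand), the lactate dehydrogenase subunit that is the textbook HIF target, had 262.5 CPM with empty vector and 145, 155 and 101 CPM in the replicates. Replicate 3 was the lowest by a clear margin, at 0.383 of the empty vector level (0.360 to 0.407), while replicates 1 and 2 stood at 0.551 (0.526 to 0.577) and 0.592 (0.566 to 0.619). The mean log2 difference was -1.0 ± 0.34 (SD, n = 3). PDK1 (ENSG00000152256.14; chromosome 2, 172555373 to 172608669, plus strand) encodes a kinase that switches off pyruvate dehydrogenase and so keeps pyruvate away from the TCA cycle. It had 258 CPM against 149, 157 and 110 CPM, with a mean log2 difference of -0.91 ± 0.28 (SD, n = 3) and the same order of libraries as LDHA.

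BNIP3 (ENSG00000176171.12; chromosome 10, 131966455 to 131982013, minus strand) encodes a mitochondrial outer membrane protein that marks mitochondria for removal by autophagy in hypoxia. It had 109 CPM with empty vector, then 36.1, 35.1 and 24.9 CPM in labelled knockdown replicates 1, 2 and 3, where the mean was 32.0 ± 6.23 CPM (SD, n = 3). All 3 libraries lay far below the empty vector library, at 0.332 (0.306 to 0.360), 0.322 (0.297 to 0.35) and 0.228 (0.203 to 0.256) of its level. The empty vector level was 3.40 times the mean of the 3, and the mean log2 difference was -1.78 ± 0.30 (SD, n = 3). The tables also list 39 BNIP3 pseudogenes, near copies that can share reads with it. Their summed counts were 211 with empty vector and 290, 279 and 489 in the replicates, or 8.79, 4.66, 4.67 and 15.7 CPM, so replicate 3 was the highest. With those counts added, the ratios to the empty vector library were 0.347, 0.338 and 0.344. The lower level of BNIP3 was thus seen with and without the pseudogene counts, while a lower level in replicate 3 than in replicates 1 and 2 was seen only without them.

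Within the labelled knockdown group the 10 genes did not move as one. Replicates 1 and 2 were close, with log2 differences between them from -0.10 for HK2 to 0.10 for LDHA. Replicate 3 lay below both in 7 genes and above both in 3, beside 56.3% and 37.8% of all genes. Against the mean of replicates 1 and 2, replicate 3 was higher by 0.60 in SLC2A1, 0.56 in HK2 and 0.29 in PKM on the log2 scale. For LDHA the value was -0.58, for BNIP3 -0.52 and for PDK1 -0.47. PGK1, ENO1, ALDOA and PFKP lay between -0.29 and -0.15, and the median over all genes tested was -0.17. No test was run on this contrast of 1 library with a pair.

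The libraries differ by transcript length, which bears on each of these values. Across 15485 tested genes with an annotated transcript, longest-transcript length and log2 difference had a Spearman correlation of 0.35, 0.30 and 0.46 for replicates 1, 2 and 3. This is a correlation across genes, which are not independent. The median length was 3041 nt for the 10 genes and 3519 nt for all genes tested, and 6 of the 10 were shorter than that. When smooth trends on length and GC content were removed, the median of the 10 genes moved from -0.93 to -0.80. All 10 genes then lay below the empty vector library in all 3 libraries, against 34.3% of all genes, and BNIP3 and PDK1 lay 2-fold lower in all 3, against 1.76%.

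HK2 moved from -0.30 to -0.54 with the trends removed, with -0.63, -0.66 and -0.33 in replicates 1, 2 and 3. PDK1 moved from -0.91 to -1.74, a value that rests on its longest annotated transcript of 14193 nt; which of its transcripts these cells make was not measured. BNIP3 stayed near its uncorrected value, at -1.67, and ENO1 moved to -0.59.

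**Figure D3:**
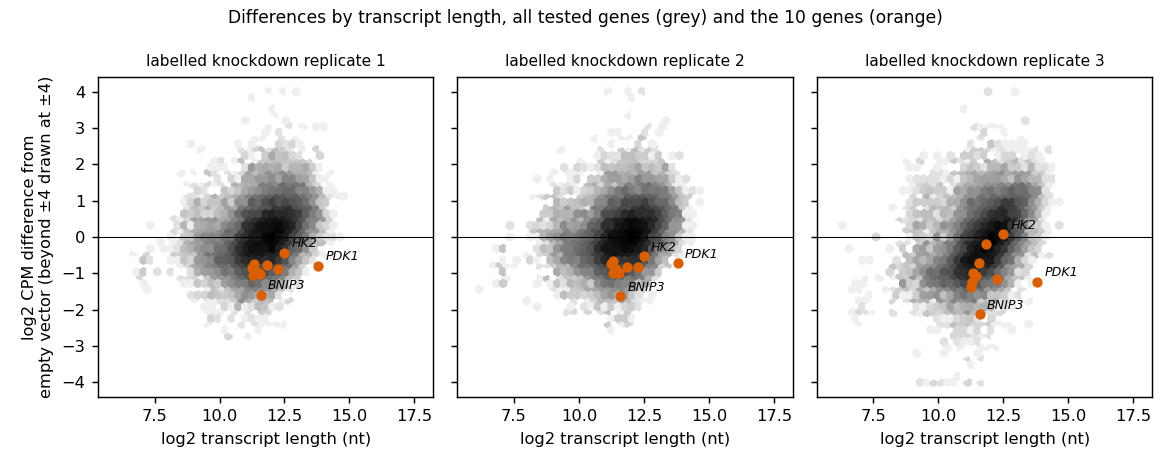
Log2 CPM difference from the empty vector library against log2 transcript length for all tested genes (grey hexagons, darker where more genes lie, on a log scale of counts) and the 10 genes (orange), 1 panel per labelled knockdown library. Short transcripts tend to lie low, most of all in replicate 3, and of the 10 genes BNIP3 and PDK1 lie furthest below the genes of their length.

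Each of these genes has isozymes or a close relative, and shares within a family do not depend on the scaling between libraries. Shares are of CPM per kb of longest transcript, with 95% exact binomial (Clopper-Pearson) intervals for counting error. SLC2A1 made up 20.4% (19.8% to 21.0%) of the summed transcripts of SLC2A1, SLC2A3, SLC2A14 and SLC2A4 in the empty vector library; other glucose transporters were not in this sum. In replicates 1, 2 and 3 it made up 9.45%, 9.18% and 14.7%. SLC2A3, the high-affinity transporter GLUT3, held most of the rest, at 1315 CPM with empty vector and 1875, 1874 and 1712 CPM in the replicates. SLC2A3 was higher in all 3 labelled knockdown libraries, opposite to SLC2A1, with a mean log2 difference of 0.47 ± 0.08 (SD, n = 3) that did not reach 2-fold. Of the minor members, SLC2A14, a near copy of SLC2A3 that can share its reads, had 21.04 CPM against 32.4 ± 12.7 CPM (SD, n = 3). Its replicates 1 and 2 lay above the empty vector library, at 38.1 and 41.2 CPM, and replicate 3 below it, at 17.8 CPM. SLC2A4, the insulin-regulated transporter, had 2.12 against 0.695 ± 0.359 CPM (SD, n = 3).

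HK1, the housekeeping hexokinase, outweighed HK2 in every library, with 87.6% of the summed HK1, HK2, HK3 and HKDC1 transcripts with empty vector and 90.8%, 91.6% and 83.1% in the replicates. HK1 stood at 354 CPM against 338 ± 68.0 CPM (SD, n = 3), with 368, 387 and 260 CPM in replicates 1, 2 and 3. Among the phosphofructokinases PFKP's share went from 42.5% (40.8% to 44.2%) to 37.4%, 37.3% and 37.7%. PFKL, the liver form, had 130 CPM against 68.1 ± 3.87 CPM, and PFKM, the muscle form, had 96.2 against 68.2 ± 9.53 CPM (SD, n = 3). All 3 phosphofructokinases thus lay below the empty vector value in all 3 replicates, PFKM by the least.

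ALDOC, the brain-type aldolase and itself a hypoxia-responsive gene, passed the rule as lower. It had 26.9 CPM with empty vector and 8.83, 10.3 and 3.14 CPM in the replicates, a mean log2 difference of -2.02 ± 0.92 (SD, n = 3). ENO2, the neuronal enolase, had 144 CPM against 86.0 ± 10.6 CPM, and ENO3, the muscle form, had 5.33 against 5.53 ± 0.192 CPM (SD, n = 3). ENO1 kept 91.6% of the enolase transcripts with empty vector and 92.0%, 91.6% and 88.8% in the replicates. LDHB, the heart-type subunit, had 72.2 CPM against 41.4 ± 5.26 CPM (SD, n = 3), but 33.4% of its exonic bases overlap another gene on the same strand, so its level is uncertain. LDHA's share of the pair was 69.8% in the empty vector library, 71.3% and 71.2% in replicates 1 and 2, and 57.5% in replicate 3.

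Among the pyruvate dehydrogenase kinases PDK1 held 41.2% (39.7% to 42.8%) with empty vector and 33%, 36% and 22.3% in the replicates, while PDK3 held 49.5% and then 56.6%, 54.3% and 69.6%. The order of the pair rests on dividing by PDK1's longest transcript of 14193 nt. As shares of counts, with no length, PDK1 held 68.8% with empty vector and 60.7%, 63.8% and 47.1% in the replicates, and PDK3 held 27.5%, then 34.7%, 32.0% and 48.8%. On both scales PDK1's share was smaller in each replicate than with empty vector. PDK3 itself stood at 103 CPM against 92.6 ± 18.9 CPM (SD, n = 3), with 84.8, 78.7 and 114 CPM in replicates 1, 2 and 3. PDK2 stood at 13.0 against 9.56 ± 1.06 CPM and PDK4 at 1.17 against 0.908 ± 0.323 CPM (SD, n = 3). BNIP3L, the relative of BNIP3 that acts in the same mitochondrial clearance, had 130 CPM with empty vector and 130, 128 and 52.3 CPM in the replicates. BNIP3L was level with the empty vector library in replicates 1 and 2, where BNIP3 was far lower, and was lower in replicate 3 alone. BNIP3's share of the pair was 49.6% with empty vector and 24.6%, 24.5% and 35.9% in the replicates. With the pseudogene counts added it was 51.6%, then 26.9%, 26.9% and 47.7%, so replicate 3 came close to the empty vector share. Of the 14 isozymes tested, 1 (ALDOC) passed as lower and 0 as higher, beside 2.72% and 3.66% of all genes, with a median log2 difference of -0.45.

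**Figure D4:**
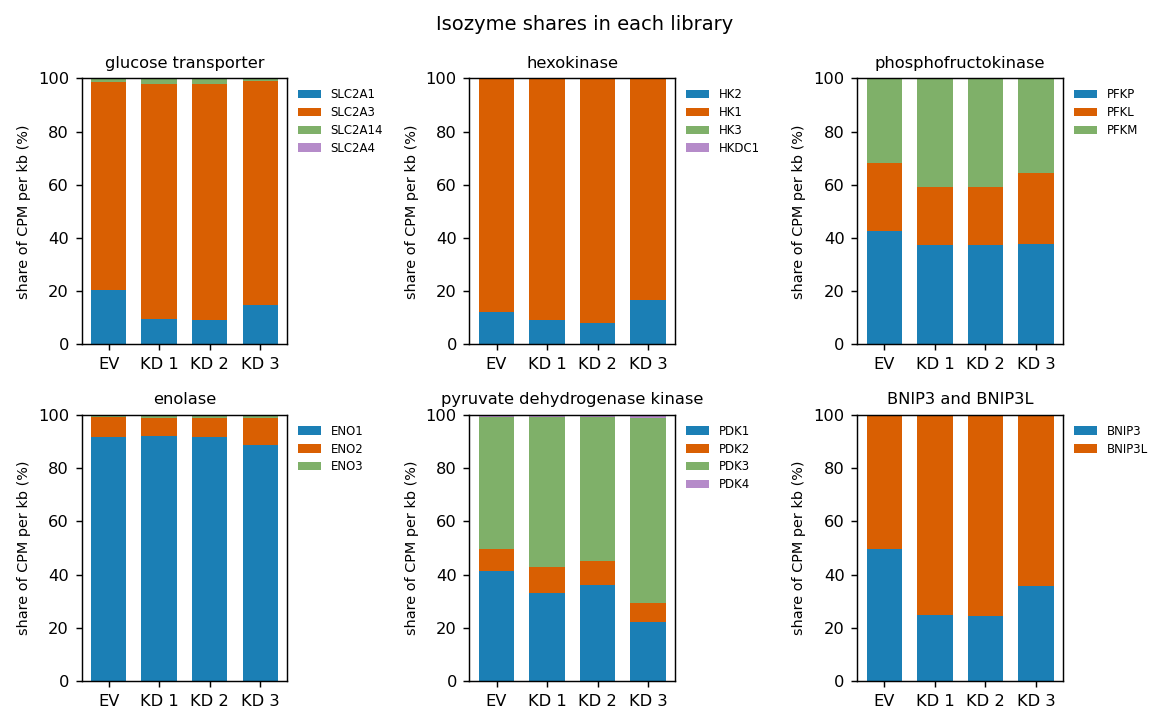
Share of each isozyme in its family's CPM per kb, as stacked bars from 0% to 100%, in the empty vector library (EV) and the labelled knockdown replicates 1 to 3 (KD 1 to KD 3). SLC2A1, PFKP, PDK1 and BNIP3 hold a smaller share in each labelled knockdown library than in the empty vector library, and HK2 does not in replicate 3.

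The other genes of glycolysis were taken as a list of 14, of which 12 were tested. Of these 1 passed as lower and 0 as higher, beside 2.72% and 3.66% of all genes, and 8 of 12 lay below the empty vector library in all 3 libraries, beside 34.2%. The median log2 difference was -0.74, or -0.48 without replicate 3 and -0.42 with the length and GC trends removed. The gene that passed was PFKFB4, which makes the allosteric activator of phosphofructokinase and is a known hypoxia target. It had 20.0 CPM with empty vector and 4.27, 5.44 and 5.95 CPM in the replicates, a mean log2 difference of -1.94 ± 0.25 (SD, n = 3). TIGAR, a p53 target that counters the same activator, had the highest mean, with 28.5 CPM against 43.7, 43.2 and 65.6 CPM. PGAM1, TPI1, GAPDH and GPI, named after their values were seen because they complete the pathway, stood at 0.461, 0.578, 0.607 and 0.762 of the empty vector level in the mean of the 3. Over the 12 genes from GLUT1 to LDHA (8 of the 10 described, with GPI, TPI1, GAPDH and PGAM1), the summed level was 18655 CPM with empty vector and 11043, 12139 and 9751 CPM in the replicates. Most of each sum was GAPDH, with 10817 CPM with empty vector and 6673, 7564 and 5447 CPM in the replicates.

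Hypoxia-responsive genes outside glycolysis lay on both sides of the empty vector library. Of 32 tested, 2 passed as lower and 0 as higher, beside 2.72% and 3.66% of all genes. In all 3 libraries 13 of the 32 lay below the empty vector library and 7 above it, beside 34.2% and 30.1% of all genes, and the median log2 difference was -0.11, which turned to 0.0526 without replicate 3. EGLN3, the prolyl hydroxylase that HIF itself induces, had 36.3 CPM with empty vector and 13.9, 16.4 and 18 CPM in the replicates. PPFIA4 had 4.92 CPM against 2.22, 1.76 and 2.43 CPM. Some other textbook targets, named after their values were seen, lay the other way in replicates 1 and 2. ADM, the vasodilator adrenomedullin, had 45.9 CPM against 144, 146 and 66.7 CPM. VEGFA, the angiogenic growth factor, had 18.2 CPM against 36.4, 34.9 and 14.6 CPM, and STC2 had 36.4 CPM against 107, 104 and 24.2 CPM. None of these passed the rule, and for VEGFA and STC2 the sign in replicate 3 was opposite to that in replicates 1 and 2. FAM162A and HILPDA, also named after their values were seen, lay lower in all 3 libraries without passing. Their mean log2 differences were -1.18 and -1.20. In this list 4, 5 and 7 of the 32 were at least 2-fold lower in replicates 1, 2 and 3, beside 7.5%, 6.7% and 15.9% of all genes. Those at least 2-fold higher were 3, 2 and 0, beside 11.3%, 10.4% and 11.3%.

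The list for the HIF system held 15 genes, all tested, with MYC and MYCN among them. EGLN1 and EGLN3 are also on the list of other hypoxia-responsive genes. Of the 15, 1 (EGLN3) passed as lower and 0 as higher, beside the same 2.72% and 3.66%, with a median log2 difference of 0.22. By direction alone, 9 of the 15 lay above the empty vector library in all 3 libraries and 2 below it, beside 30.1% and 34.2% of all genes. HIF1A, the alpha subunit, had 284 CPM with empty vector and 352, 353 and 289 CPM in the replicates; its protein is set mainly by degradation, which RNA does not read. CITED2, a HIF-induced protein that competes for the same coactivator, had the highest mean of the list, with 67.2 CPM against 134, 137 and 122 CPM and a log2 difference of 0.96 ± 0.09 (SD, n = 3).

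**Figure D5:**
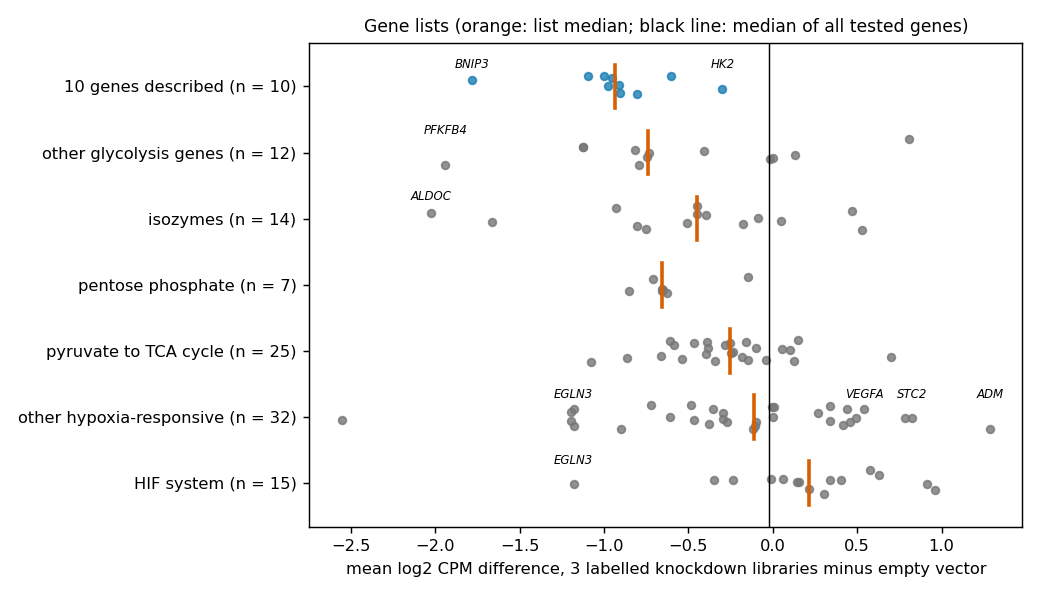
Mean log2 CPM difference of the 3 labelled knockdown libraries from the empty vector library for each tested gene of 7 lists (points, spread vertically for display), with list medians in orange and the median of all tested genes, -0.02, as a black line. The 10 genes described and the other glycolysis genes lie mostly to the left of the black line, and the other hypoxia-responsive genes lie on both sides of it.

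Facts of the libraries bear on all of this. Library totals ran from 25181737 to 62904698 counts. All 10 embryonal carcinoma markers were detected in the empty vector library, with a summed level from 8000 to 9678 CPM over the 4 libraries. Of these 1, DNMT3B, passed the rule as lower, beside 2.72% of all genes. It went from 795 CPM to 347 ± 5.82 CPM (SD, n = 3), and PODXL had the highest mean log2 difference, 0.66. In replicate 3, 5 of the 10 lay at least 2-fold lower, beside 15.9% of all genes, and the list had a median of -0.85. They were POU5F1, TDGF1, DPPA4, DNMT3B and L1TD1, named after their values were seen. In replicates 1 and 2 it was 1 of 10, DNMT3B, beside 7.5% and 6.7% of all genes. PODXL went the other way, from 1838 CPM to 2566, 2462 and 3865 CPM. Without PODXL, a choice made after seeing the data, the sum was 6988 CPM with empty vector, 6981 and 7217 CPM in replicates 1 and 2, and 4135 CPM in replicate 3. Of the 10 fibroblast markers 2, DCN and FAP, were at 0 in the empty vector library and the list's summed level ran from 432 to 701 CPM. Of the 8 tested, 2 (PDGFRB and POSTN) passed as higher, beside 3.66% of all genes. At least 2-fold higher were 3, 3 and 2 of the 8 fibroblast markers tested in replicates 1, 2 and 3, beside 11.3%, 10.4% and 11.3% of all genes. At least 2-fold lower was 1 of the 8 in each, beside 7.5%, 6.7% and 15.9% of all genes. It was COL3A1 in replicates 1 and 2 and TWIST2 in replicate 3, both named after their values were seen. The 12 neuron markers summed to 154 to 247 CPM, with MAP2 alone passing as higher, beside 3.66% of all genes. In replicates 1 and 2, 6 of the 12 were at least 2-fold higher, beside 11.3% and 10.4% of all genes, and the list medians were 0.82 and 0.81. For replicate 3 it was 1 of 12, MAP2, beside 11.3% of all genes, with a median of -0.11. Neuron markers at least 2-fold lower were 0, 0 and 2 of the 12 in replicates 1, 2 and 3, beside 7.5%, 6.7% and 15.9% of all genes. By mean difference STMN2 was the highest of that list, at 2.03, and RBFOX3 the lowest, at -0.81. The part of these differences in the levels of the 10 genes was not tested.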

How the data were processed

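For each of 4 rRNA-depleted, strand-marked total RNA libraries the authors deposited gene-level raw counts in 1 file. The submitters' processing notes name STAR 2.7.11b, featureCounts 2.0.6, DESeq2 and the build GRCh38; the annotation release, the strand setting and whether read pairs were counted as 1 are not given in the sources used here. Between 65.2% and 68.0% of nonzero counts were even, so counting intervals were computed on counts divided by 2. Files follow the sample record; headers were not used for grouping.

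TMM factors came from edgeR 4.0.16 (R 4.3.3) on genes kept by filterByExpr; log2 CPM used a prior count of 2. The fold rule, edgeR's quasi-likelihood test, DESeq2 1.42.0 and voom in limma 3.58.1 were run on the whole table, with Benjamini-Hochberg adjustment. Transcript lengths, GC content and coordinates came from GENCODE 29 by identifier (58225 matched, 4471 did not). Trends were removed by lowess with a span of 0.3. The rule and the lowess step were checked on simulated data. The quasi-likelihood test was also run on simulated data, but no limit was set on its calls. The 10 genes and the lists were chosen with earlier results of these data known. The text names the 10 genes, every isozyme with a mean of at least 1 CPM (1 is not reported here and was left out of the isozyme list and shares), and from each other list up to 4 genes past the rule or, where fewer than 2 passed, the genes with the highest and the lowest mean.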

Additional observations from a re-analysis of the deposited data

How the results depend on the processing

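No paired analysis was possible because only the labelled knockdown libraries carry replicate numbers. No mean log2 difference of the 10 genes changed direction in the 92 values recomputed. Of these, 86 lay within 1 SD between replicates of the reported value. The 6 that moved further were PFKP, ALDOA, PGK1, ENO1 and PDK1 with the length and GC trends removed, and ALDOA with readthrough counts added. Leaving out 1 of 3 replicates cannot move a mean by 1 SD, so those values could not leave that range. The prior count hardly acts on genes at these levels. The number of the 10 genes past the fold rule, reported as 1, was 2 with DESeq2 size factors or upper quartile scaling (BNIP3 and ALDOA). It was 2 with the length and GC trends removed (BNIP3 and PDK1), 3 by the mean of the labelled knockdown libraries (BNIP3, ALDOA and LDHA) and 8 at 1.5-fold. Of all genes, 6.38% passed in either direction as reported, 6.39% with DESeq2 size factors and 6.4% with upper quartile scaling. The share was 4.31% with trends removed and 15.3% by the mean. At 1.5-fold, 9.62% of all genes passed as lower and 10% as higher. Leaving out each replicate gave 1 to 2, the 2 without replicate 2. Of all genes, 6.92%, 7.91% and 15.1% passed in either direction without replicates 1, 2 and 3. The number of the 10 genes below the empty vector library in every labelled knockdown library was 9 to 10. It was 10 without replicate 3, beside 44.1% of all genes, and with trends removed, beside 34.3%. The number called, 0 by edgeR, was 1 by DESeq2 and ranged from 0 to 10 when a replicate was left out, with 10 without replicate 3.

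The median of the 10 genes ran from -1.02 to -0.80 over all alternatives, and was -0.91 without ALDOA. The other glycolysis genes had a median of -0.42 with trends removed, and from -0.84 to -0.48 with a replicate left out. The isozyme median ran from -0.54 to -0.36 when a replicate was left out. The median of the other hypoxia-responsive genes changed direction, to 0.0526, without replicate 3, and was -0.17 and -0.18 without replicates 1 and 2. The pentose phosphate median was -0.57 with total counts, -0.32 with trends removed, and from -0.72 to -0.53 with a replicate left out. The median of replicate 3 minus the mean of replicates 1 and 2 over the 10 genes, -0.24, was -0.0796 with total counts. The causes were not tested. Adding the readthrough counts to ALDOA and the pseudogene counts to BNIP3, and the median without ALDOA, were chosen after seeing the data. BNIP3's share of the BNIP3 and BNIP3L pair with empty vector, 49.6%, was 51.6% with pseudogene counts. For HK2 in replicate 3 the ratio was 1.05, and its counting interval, 0.963 to 1.15, includes 1.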

Other observations

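The pentose phosphate pathway, which branches off at glucose 6-phosphate and supplies NADPH and ribose, lay lower as well. All 7 of its tested genes were below the empty vector library in all 3 labelled knockdown libraries, beside 34.2% of all genes tested, and 0 of the 7 passed the 2-fold rule. The median log2 difference was -0.66, and -0.32 with the length and GC trends removed. PGD, the second of its dehydrogenases, had the lowest mean, with 105 CPM with empty vector and 53.3, 55.3 and 65.5 CPM in the replicates. RPE, an epimerase of its later steps, had the highest, with 62.7 CPM against 62.3, 61.7 and 47.1 CPM.

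The genes that carry pyruvate into and around the TCA cycle were closer to the empty vector library in replicates 1 and 2. Of 25 tested, 0 passed the rule in either direction, beside 6.38% of all genes, and the median log2 differences were -0.17, -0.20 and -0.63 in replicates 1, 2 and 3. SDHB, the iron-sulfur subunit of succinate dehydrogenase, had the lowest mean, with 63.7 CPM against 30.3, 33.2 and 27.1 CPM. PDP1, the phosphatase that reverses the action of the pyruvate dehydrogenase kinases, had the highest, with 25.9 CPM with empty vector and 54.6, 51.8 and 26.3 CPM in the replicates. In replicates 1 and 2 PDP1 was therefore more abundant than in the empty vector library while PDK1 was less abundant, and in replicate 3 PDP1 was level with it. PDP2, the other such phosphatase on the list and named after its values were seen, went the opposite way to PDP1 in replicates 1 and 2. It had 16.0 CPM with empty vector and 10.7, 10.3 and 25.6 CPM in the replicates.

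ANGPTL4, named after its values were seen, set the labelled knockdown libraries apart from each other most among the tested hypoxia-responsive genes. It stood at 5.17 CPM with empty vector, 0.450 and 0.285 CPM in replicates 1 and 2, and 4.22 CPM in replicate 3.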
